A study of Mus musculus with 5 samples.

Results

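The gene table of a polymerase II ChIP-seq experiment in mouse Th2 cells was searched for microRNA genes. Members were the lines whose gene name begins with the microRNA prefix followed by a digit or let and whose gene is shorter than 200 bp, a length that selects the hairpin itself. The table writes the prefix in its older form, Mirn, which was read as Mir. The rule gave 87 lines of 11608. Lines with the same 4 values within 100 kb share their polymerase regions and were counted once, which left 64 distinct loci of 9868 in the table. Of these, 14 loci held more than 1 hairpin, 37 hairpins in all, and the largest held 6.

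Th2 cells were differentiated *in vitro* from naive CD4+CD62L+ T cells of the spleen of young adult C57BL6 mice, with anti-CD3, anti-CD28, IL-4 and anti–IFN-γ, and were expanded in IL-2 and IL-4. The 4 conditions were *Parp14*+/+, *Parp14*+/+ + PJ34, *Parp14*−/− and *Parp14*−/− + PJ34. *Parp14* encodes PARP-14, an ADP-ribosyltransferase that acts with STAT6, and PJ34 inhibits PARP enzymes in general, not PARP-14 alone; the labels give its dose as 10 µM and the study's methods give a lower one. Each condition was 1 library of chromatin precipitated with an antibody to elongating polymerase II, phosphorylated on serine 2, so there are no replicates, no test between conditions was possible and no p-value is given. An Input library mixed from both genotypes has no value per gene here. The value of a gene is its average peak height, the mean over its active regions of the highest pile-up of fragments in each, after the authors set all libraries to the same number of alignments. An active region is a stretch covered by merged SICER intervals, and a gene was given the regions that touched it or lay within about 5 kb: that margin gave the listed number of regions for 94.3% of the lines of the table, against 73.8% with no margin. Some listed genes had an interval in none of these 4 libraries. *Mir704*, for example, lies in a region of 5250 bp and had none.

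A microRNA gene is transcribed by polymerase II into a long primary transcript, which may be a host gene or a noncoding RNA of its own. The nuclear enzyme Drosha cuts a hairpin out of that transcript, exportin 5 carries it to the cytoplasm, and Dicer trims it to the mature RNA that guides an Argonaute protein to messenger RNAs. Target choice rests mainly on the seed, bases 2 to 8 of the mature RNA. The assay reads polymerase on the primary transcript and says nothing of the amount of mature microRNA, which is also set by processing and turnover.

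RefSeq (GRCm38.p6) held mature sequences for 80 of the 87 hairpins, 148 sequences with 124 different seeds, and a script found each inside the hairpin on the mm9 genome at the coordinates of the table. *Mir320*, *Mir30b*, *Mir715*, *Mir133a-2*, *Mir801*, *Mir709* and *Mir328* are given by name. The sequences below belong to the loci with the most polymerase and to the families that occur at several loci. They are written 5′ to 3′ with the seed in capitals.
miR-142a-3p: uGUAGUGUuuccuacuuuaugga
miR-155-5p: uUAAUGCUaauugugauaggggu
miR-21a-5p: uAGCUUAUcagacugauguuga
miR-17-5p: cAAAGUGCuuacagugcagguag
miR-20a-5p: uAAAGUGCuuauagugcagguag
miR-93-5p: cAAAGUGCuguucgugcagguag
miR-106b-5p: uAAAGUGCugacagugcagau
miR-19a-3p: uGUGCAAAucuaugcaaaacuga
miR-92a-3p: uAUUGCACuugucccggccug
miR-25-3p: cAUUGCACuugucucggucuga
miR-29a-3p: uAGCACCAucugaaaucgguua
miR-23a-3p: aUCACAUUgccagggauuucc
miR-27a-3p: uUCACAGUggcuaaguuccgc
miR-27b-3p: uUCACAGUggcuaaguucugc
miR-24-3p: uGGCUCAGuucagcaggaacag
miR-22-3p: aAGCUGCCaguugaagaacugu
miR-191-5p: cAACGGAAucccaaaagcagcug
miR-7a-5p: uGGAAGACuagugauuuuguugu
let-7d-5p: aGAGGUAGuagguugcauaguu
let-7f-5p: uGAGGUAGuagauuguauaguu
let-7i-5p: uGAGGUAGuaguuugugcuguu
let-7g-5p: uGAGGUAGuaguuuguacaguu
miR-98-5p: uGAGGUAGuaaguuguauuguu
miR-15b-5p: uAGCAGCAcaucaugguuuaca
miR-16-5p: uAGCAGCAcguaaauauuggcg
The first 3 lines come from loci with a single hairpin, *Mir142*, *Mir155* and *Mir21*, and the miR-17, miR-20a, miR-19a and miR-92a lines come from a single cluster. Of the 124 seeds, 13 occurred in more than 1 hairpin. The let-7 seed, GAGGUAG, was the most common, with 8 hairpins at 5 loci. The seed AAAGUGC stood in 4 hairpins, *Mir17* and *Mir20a* at one locus and *Mir93* and *Mir106b* at another. The seed AGCAGCA was shared by *Mir15a*, *Mir15b*, *Mir16-1* and *Mir16-2* at 2 loci, and miR-92a-3p shared AUUGCAC with miR-25-3p. The miR-27 seed UCACAGU and the miR-24 seed GGCUCAG each occurred at 2 loci, the clusters of *Mir23a* and *Mir23b*.

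Which hairpins reached this list depended on the polymerase signal. All 87 lines carry a microRNA as their description, and so do 21 other short lines that stand under the name of an unrelated gene. Of the 81 microRNA lines with an interval in either *Parp14*+/+ library, the name differed from the described microRNA in 0. Of the 27 lines without one, it differed in 25. Choice by name therefore left out 21 microRNA lines, none of which had an interval in a *Parp14*+/+ library, and counts that favour the *Parp14*+/+ libraries are partly fixed by it. Results are for this reason also given over all 108 microRNA lines, 82 distinct loci. Among the 87, 4 were named here by their description and coordinates instead: *Mir686*, *Mir339*, *Mir704* and *Mir374*.

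The libraries differed in how much of the genome was called. There were 8841 to 12014 intervals per library, and their total length without PJ34 was 98.1 Mb for *Parp14*+/+ cells against 73.8 Mb for *Parp14*−/− cells, and with PJ34 82.4 Mb against 65.5 Mb. Values are given from here on in the order *Parp14*+/+, *Parp14*+/+ with PJ34, *Parp14*−/−, *Parp14*−/− with PJ34. Peak heights of *Parp14* itself were 8, 11, 6.67 and 6.67, and the sources used here do not say which part of the gene is deleted. *Gata3*, the defining factor of Th2 cells, stood at 60, 58, 45 and 43, and *Cd3e* had an interval in all 4 libraries. *Cd4* stood at 5.5, 6.5, 4 and 7, with no interval in untreated *Parp14*−/− cells. Of the Th2 cytokine genes, *Il4* had 61, 39, 29 and 18 and *Il13* 38, 33, 17 and 10, with an interval in every library, while *Il5* had 21, 21, 4 and 6 and no interval in either *Parp14*−/− library. The B cell genes *Ms4a1* and *Pax5* and the CD8 gene *Cd8a* had none in any, whereas *Cd79a* (28 to 38) and the Th1 genes *Tbx21* (19 to 28) and *Ifng* (14 to 22) had one in every library. For the genes with none, no match by coordinates is given, and microRNA lines without a *Parp14*+/+ interval mostly stood under another gene's name. These absences may therefore belong to other genes.

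Among the highest microRNA loci were those of microRNAs known from lymphocytes and from activated T cells. *Mir142* (chr11:87570365-87570428, + strand), the microRNA restricted to blood cells, had peak heights of 172, 182, 184 and 173. It lies in an intron of the noncoding gene *A430104N18Rik*, and its 4 libraries were within 1.07-fold of each other. *Mir155* (chr16:84714384-84714448, + strand), in an exon of its own noncoding host and induced when T cells are activated, was almost as even, with 54, 50, 50 and 53. The line of *Mrpl39* has the same 4 values, so this height cannot be given to *Mir155* alone. *Mir21* (chr11:86397568-86397659, − strand) is also induced by activation and lies in an exon at the 3′ end of *Vmp1*. Its heights were 78, 92, 121 and 108, and both *Parp14*−/− libraries were above both *Parp14*+/+ libraries. These are also the values of the *LOC100043687* line, so the height cannot be given to *Mir21* alone.

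*Mir150* (chr7:52377126-52377190, + strand), abundant in resting lymphocytes, had heights of 31, 22, 25 and 25. Its region was shared with other lines, among them *Rpl13a*, *Flt3l* and 5 small nucleolar RNAs, so the height cannot be given to *Mir150* alone. *Mir715* (chr17:39981080-39981189, + strand) stood second, with 126, 148, 163 and 147 over a region of 6150 bp. No host gene in the NCBIM37 annotation overlapped its hairpin, and the rest of the region was not searched. The line of *LOC627695*, described as a hypothetical protein, has the same 4 values, so the height cannot be given to *Mir715* alone. *Mir801* overlaps the U11 small nuclear RNA, whose line has the same values, 35, 36.33, 35 and 37 as a mean over 3 regions. The interval over the *Mir801* hairpin itself was higher, at 83, 88, 75 and 84.

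Among the clusters, the 6 hairpins from *Mir17* to *Mir92-1* (chr14:115442892-115443727, + strand), known for driving lymphocyte proliferation, lie in an exon of the noncoding *Mir17hg*. They shared heights of 38, 24, 33 and 30, with the lowest value in *Parp14*+/+ + PJ34. *Mir29a* and *Mir29b-1* (chr6:31012659-31013092, − strand), whose mature forms restrain Th1 factors, had 50, 49, 45 and 39. The cluster *Mir23a*, *Mir27a* and *Mir24-2* (chr8:86732416-86732819, + strand) had 44, 34, 38 and 29, and was higher in each untreated library than in its PJ34-treated counterpart. Its paralogue *Mir23b*, *Mir27b* and *Mir24-1* (chr13:63401791-63402582, + strand) had 37, 39, 49 and 44, and was higher in both *Parp14*−/− libraries; its host *2010111I01Rik* had 20.5, 26.25, 27.25 and 21.5 over 4 regions. Mature miR-24 and miR-27 are known to restrain Th2 cytokine production. The 2 loci that carry the same seeds thus stood in opposite order between the genotypes, but each ratio had a 95% interval that included 1 (1.16, 0.733–1.84, for the *Mir23a* cluster and 0.755, 0.479–1.18, for the *Mir23b* cluster, untreated pair). The *Mir23b* cluster heights were read far upstream, at −48387 to −25171 bp from *Mir23b*, so the contrast need not be one between the hairpins.

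**Figure D1:**
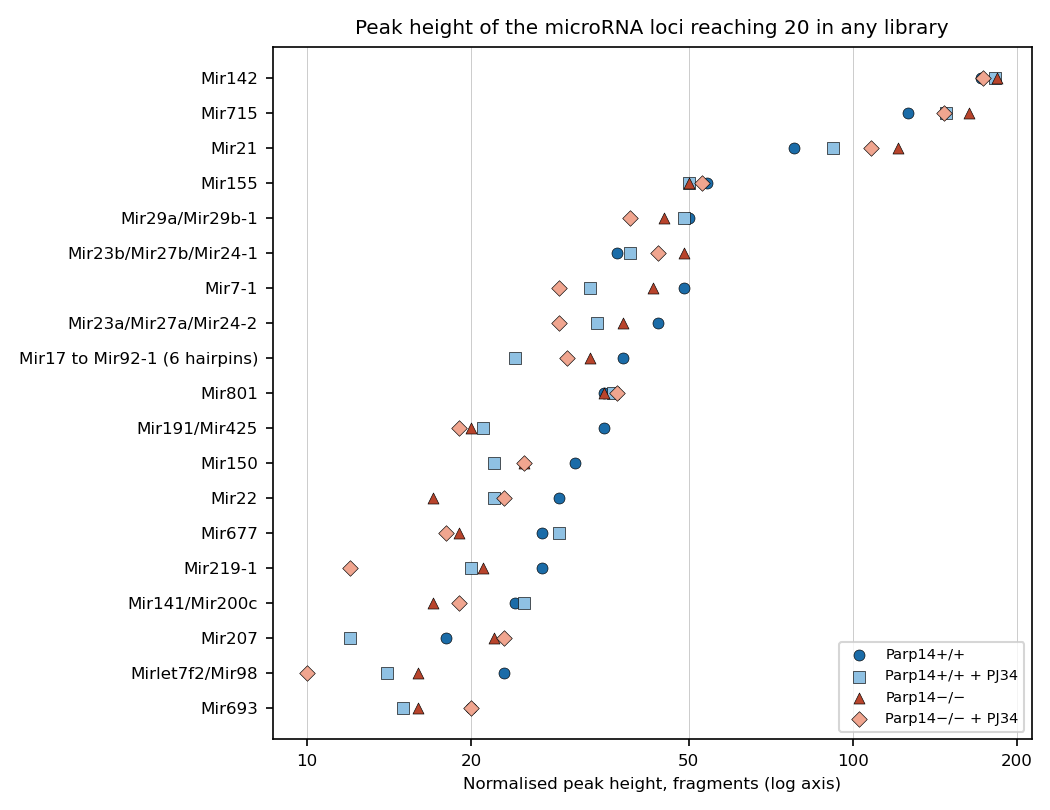
Normalised peak height in fragments (log axis) of the 19 microRNA loci that reached 20 in any library, 1 point per library and no error bar because each condition is 1 library. *Mir142*, *Mir155* and *Mir801* show almost overlapping points, *Mir21* and the *Mir23b* cluster have the *Parp14*−/− points on the right, and *Mir191*/*Mir425* has *Parp14*+/+ apart from the other 3 libraries.

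The remaining loci were lower. A height of 20 was reached in any library by 19 of the 64 loci, 20 loci peaked from 10 to under 20, and 25 stayed under 10. The median height over the loci was 11, 11.5, 10 and 9 in the 4 libraries, beside 7.67, 8, 7.5 and 7 over all loci of the table. Of a list of microRNAs known from T cells, 19 of 29 entries had a member. Among the entries without one, *Mir146*, *Mir182* and *Mir210* stand in the 21 lines under other gene names. *Mir132* and *Mir212*, a pair with 1 seed in an intron of the noncoding *1700016P03Rik*, had heights of 19, 14, 15 and 13. The *Mir106b* cluster (*Mir25*, *Mir93* and *Mir106b*) in *Mcm7* had 12, 13, 10 and 7, the *Mir99b*/*Mirlet7e*/*Mir125a* cluster 11, 14, 10 and 7, *Mir26b* 12, 16, 9 and 14 and *Mir101b* 14, 10, 12 and 13. The lowest were *Mir30c-1* with 8, 8, 8 and 6, *Mir30e* with 6, 6, 7 and 4, *Mir30b* with 4, 6.5, 3.5 and 3, *Mir15b*/*Mir16-2* with 9, 9, 7.5 and 7, and *Mir15a*/*Mir16-1* with 3, 3, 2 and 3. Heights this low are a handful of fragments, and 44 of the 64 loci had a summed height under 20 in every library.

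The order of the libraries varied among the 5 let-7 loci. *Mirlet7f2* and *Mir98*, in an intron of *Huwe1*, had heights of 23, 14, 16 and 10. *Mirlet7d*, *Mirlet7f1* and *Mirlet7a-1* had 18, 15, 18 and 12. *Mirlet7i* was instead highest in *Parp14*−/− + PJ34, with 16, 15, 13 and 19. *Mirlet7g*, in an intron of *Wdr82*, was nearly level at 11.5, 10, 12.5 and 11.5. Within the AAAGUGC family, the *Mir17* and *Mir106b* clusters lay on the same side in the untreated genotype pair, with ratios of *Parp14*+/+ to *Parp14*−/− height of 1.15 and 1.2. With PJ34 the ratios were 0.8 (0.448–1.42) and 1.86 (0.689–5.50), and both 95% intervals included 1.

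A height in the table need not come from the hairpin. The hairpin lay inside an active region at 46 loci, and these regions had a median length of 17700 bp and reached 102450 bp at *Mir29a*/*Mir29b-1*. At the other loci the nearest region was up to 4849 bp away (*Mir374*). An interval covered the hairpin itself in all 4 libraries at 18 loci, in at least 1 library at 40 and in none at 24. The 24 included the *Mir106b* cluster, *Mir26b*, *Mir15a*/*Mir16-1*, *Mir15b*/*Mir16-2*, the *Mir99b* cluster and the 3 *Mir30* loci. Their heights above were read from a region over or near the hairpin, not from an interval over it. No library had an interval at the gene for *Mir15a*/*Mir16-1*. *Mir15b*/*Mir16-2*, *Mir30b* and the *Mir99b* cluster had one in untreated *Parp14*+/+ cells alone, and the *Mir106b* cluster in *Parp14*+/+ + PJ34 alone.

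Intervals covered the hairpin at 36 of the 64 loci (56.2%) in untreated *Parp14*+/+ cells. They did so at 26 loci (40.6%) when these cells had received PJ34, at 26 (40.6%) in untreated *Parp14*−/− cells and at 25 (39.1%) when those had received it. Over all 82 microRNA loci the shares were 43.9%, 31.7%, 32.9% and 32.9%. The midpoints of all loci of the table were covered in 21.6%, 17.8%, 15.6% and 14.1%, and the total length of intervals was also largest in *Parp14*+/+. The part of that longer coverage in the microRNA count was not tested. A microRNA line is listed only when a region lies within about 5 kb of a short hairpin, while the midpoint of a long gene can be far from its region, so the levels of the shares are not comparable between the groups. Single-library coverage was seen at 10 loci: *Mir34a*, *Mir744*, *Mir138-2*, *Mir103-1*, *Mir199a-1* and *Mir365-2* were covered in *Parp14*+/+ alone, 2 loci in *Parp14*+/+ + PJ34 alone and 1 in each *Parp14*−/− library. That is 60%, 20%, 10% and 10% of the 10, beside 52.7%, 23.2%, 13.5% and 10.6% of the 820 midpoints of the table covered in a single library.

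**Figure D2:**
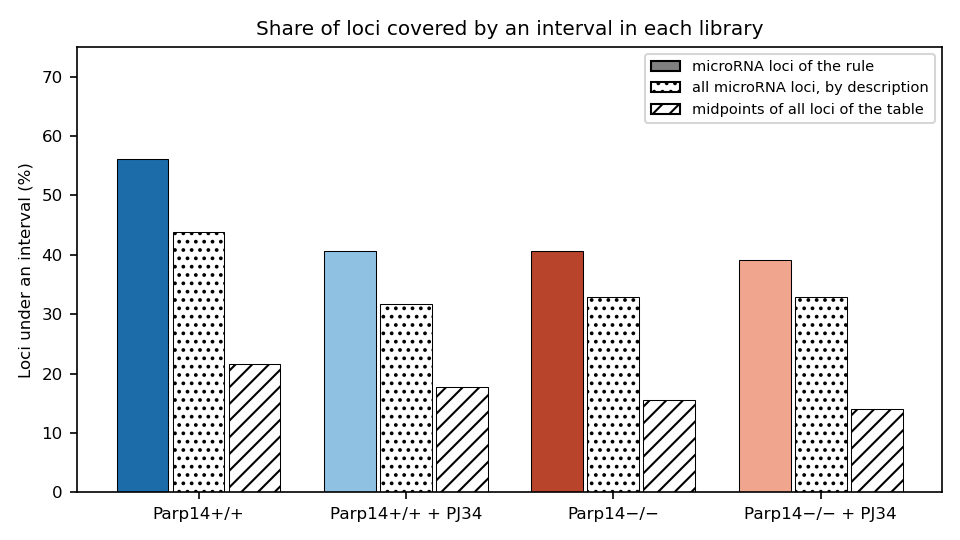
Percent of loci covered by a SICER interval in each library, for the 64 microRNA loci of the rule (filled bars), all 82 microRNA loci by description (dotted) and the midpoints of the 9868 loci of the table (hatched). The *Parp14*+/+ bar is the highest of each kind, at 56.2%, 43.9% and 21.6%.

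Polymerase stood highest downstream of several hairpins. Distances are from the midpoint of the hairpin, or of the first hairpin of a cluster by coordinate, to the highest point of the interval over it, along the hairpin's strand. At 8 of the 18 loci covered in all 4 libraries the highest point was downstream in every library: *Mir21*, *Mir142*, *Mir7-1*, *Mir17*, *Mir155*, *Mir715*, *Mir29a* and *Mir150*. It lay upstream in every library at 2, *Mir23b* and *Mir207*. At *Mir715* in untreated *Parp14*+/+ cells the highest point was 50 bp from the midpoint, still inside the hairpin. For *Mir155* the distances were 3920, 4688, 3184 and 4560 bp, for *Mir142* 1700, 2340, 1572 and 1764 bp, and for *Mir21* 1405, 1725, 1645 and 1709 bp, so the position was similar in the 4 libraries. At *Mir29a* the highest point was 9310 to 10286 bp downstream. At the *Mir23b* cluster it was −48387, −25171, −47107 and −47331 bp, where the minus sign marks upstream, so the heights of this cluster were read far from its hairpins. *Mir22* changed sides, with 3397, −2064, 3024 and −2640 bp, downstream in both untreated libraries and upstream in both PJ34-treated ones.

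**Figure D3:**
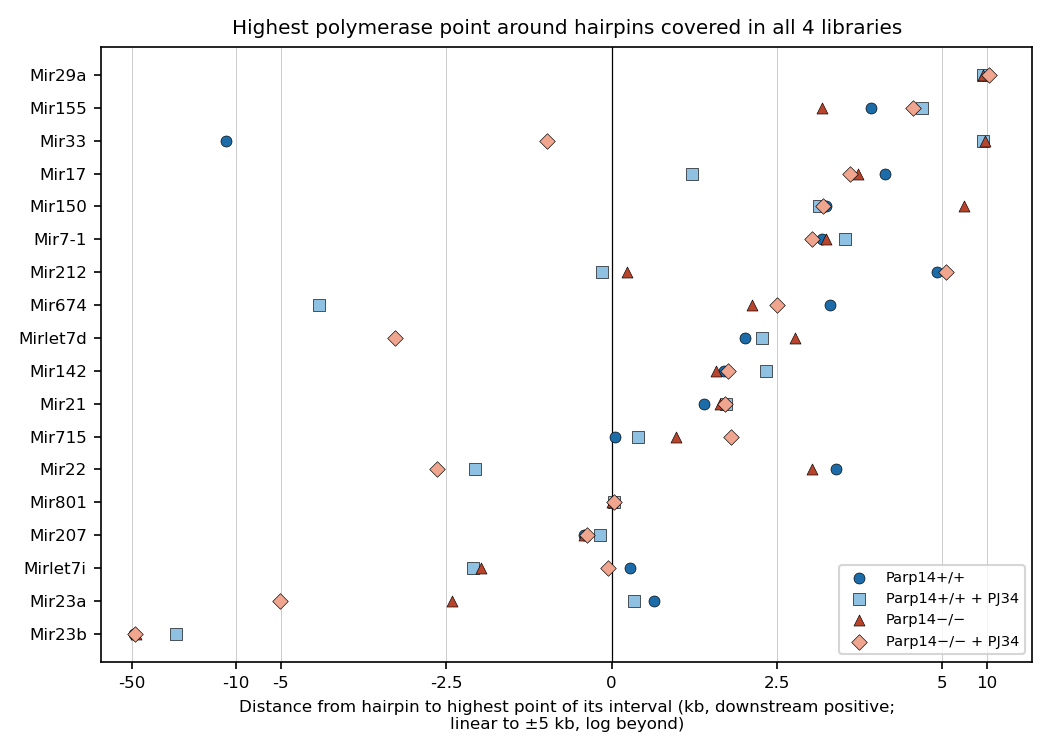
Distance in kb from the midpoint of the hairpin to the highest point of the interval over it, downstream positive (linear to ±5 kb, log beyond), for the 18 loci covered in all 4 libraries, 1 point per library. *Mir142*, *Mir21* and *Mir155* each have 4 downstream points close together, and the *Mir23b* points lie far upstream.

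Loss of PARP-14 was read as the ratio of *Parp14*+/+ to *Parp14*−/− peak height. The outer limits of the study were used: a locus was counted above 1.4 or below 0.7 when the higher library had an interval at the gene. Its narrower limits for highly transcribed genes, which rest on another scale of values, were not applied. Above the upper limit were 9 of the 64 loci (14.1%, beside 7.94% of all loci) and below the lower limit 1 (1.56%, beside 6.56%). Over all 82 microRNA loci the counts were 9 (11%) and 2 (2.44%). The interval that a count needs was present at 76.6%, 71.9%, 54.7% and 51.6% of the 64 loci in the 4 libraries. It was present at 59.8%, 56.1%, 45.1% and 42.7% of the 82, and at 60.2%, 59.3%, 51.7% and 48.9% of all loci. The part of this difference in the counts was not tested. The median ratio was 1.16, beside 1 over all loci of the table, and 43 loci had a ratio over 1, 16 under 1 and 5 at 1. Over the 82 loci the median was 1.14, with 51 over 1, 25 under 1 and 6 at 1.

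*Mir21*, whose values the *LOC100043687* line shares, was the locus below the limit. Its ratio was 0.645, with a 95% interval of 0.479–0.864 that treats summed heights as counts and covers counting error only. *Vmp1*, the host gene, had heights of 48.33, 54.67, 69 and 67 as a mean over 3 regions. That mean includes the region of *Mir21*, so it is not a separate reading. With PJ34 the *Mir21* ratio was 0.852 (0.638–1.14). Only *Mir21* and *Mir715* (0.773, 0.608–0.981) had an interval without 1 in the untreated pair, and of the 256 ratios of the 64 loci in all 4 comparisons 3 did.

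The highest loci above the limit were *Mir191*/*Mir425*, *Mir22* and *Mir677*. *Mir191* and *Mir425* (chr9:108470649-108471191, + strand), had heights of 35, 21, 20 and 19, so *Parp14*+/+ stood apart from the other 3. The ratio was 1.75 (0.983–3.20). The 35 was read at −7965 bp from *Mir191*, upstream, and 4 other lines, among them *Dalrd3*, *Impdh2* and *Qrich1*, had the same values. Intervals over these hairpins had heights of 35 and 13 in the *Parp14*+/+ libraries and 12 in the PJ34-treated *Parp14*−/− library, and untreated *Parp14*−/− cells had none.

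*Mir22* (chr11:75277217-75277311, + strand), annotated in an exon of *Tlcd2*, had heights of 29, 22, 17 and 23, a ratio of 1.71 (0.907–3.31), and 0.957 (0.508–1.80) with PJ34. The lines of *2010305C02Rik* and *LOC100042498* share these heights, so they cannot be given to *Mir22* alone. *Mir677*, in an intron of the ATP synthase gene *Atp5b*, had 27, 29, 19 and 18. Both *Parp14*+/+ libraries were above both *Parp14*−/− libraries, with ratios of 1.42 (0.761–2.70) untreated and 1.61 (0.865–3.08) with PJ34. The lines of *Atp5b* and *LOC100043085* have the same values, so the ratio cannot be given to *Mir677* alone. The untreated heights were read at 5701 bp from its hairpin in *Parp14*+/+, past the end of *Atp5b*, and at −2011 bp in *Parp14*−/−. Neither PJ34-treated library had an interval over the hairpin. *Mir141*/*Mir200c* had 24, 25, 17 and 19 (1.41, 0.727–2.80), from a region shared with *Phb2* and *Emg1*, and *Mirlet7f2*/*Mir98* a ratio of 1.44 (0.727–2.91). The intervals over these let-7 hairpins were 10 high in both untreated libraries, and *Parp14*−/− + PJ34 had none, so the heights of 23 and 16 were read elsewhere in the region.

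The other 4 loci above the limit were low. *Mir331* had the highest ratio, 2.67 (0.64–15.6), from heights of 8, 3, 3 and 3, with its nearest region 813 bp away. *Mir365-2* had heights of 5, 2, 3 and 4, *Mir138-2* 8, 7, 5 and 4 and *Mir103-1* 7.5, 5, 5 and 4. Taken from the interval over the hairpin, which 25 loci had in both libraries, *Mir22* and *Mir677* passed the upper limit and *Mir21* the lower one.

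**Figure D4:**
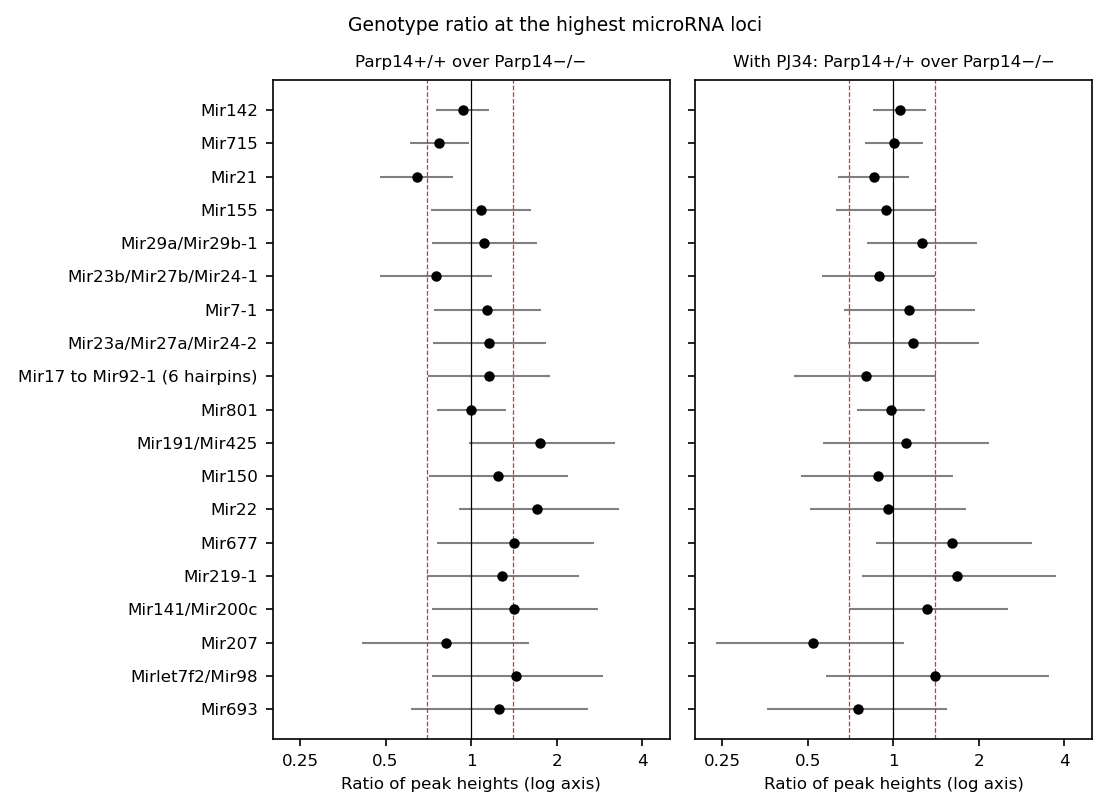
Ratio of *Parp14*+/+ to *Parp14*−/− peak height (log axis) without PJ34 (left) and with it (right) for the 19 highest microRNA loci. Bars are 95% counting intervals, dashed lines the limits of 1.4 and 0.7; *Mir21* and *Mir715* on the left are the loci whose bars do not reach 1.

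In the PJ34-treated pair 14 loci were above the upper limit (21.9%, beside 14.8% of all loci) and 1 below the lower (1.56%, beside 3.32%). Over the 82 microRNA loci these were 14 (17.1%) and 2 (2.44%). With each library divided by its median, 7 of the 64 were above and 4 below, and *Mir677* was not among the 7. The median ratio was 1.19, beside 1.14 over all loci. Of the 14, *Mir219-1* (27, 20, 21 and 12) and *Mir677* were the ones with a summed height of at least 20, and *Mir219-1* had a ratio of 1.67 (0.776–3.74). The lines of *H2-Ke6*, *Ring1* and *Slc39a7* have the values of *Mir219-1*. The interval over its hairpin was 11 high in *Parp14*+/+ + PJ34, so the 20 was read elsewhere in the region. *Mir674*, *Mir718* and *Mir219-1* were the ones with an interval over the hairpin in the higher library. The *Mir106b* cluster was also among them (1.86, 0.689–5.50), as was *Mir328*. *Mir128a*, in an intron of *R3hdm1*, had the highest ratio, 5 (1.07–46.9), from heights of 3, 10, 5 and 2 in a region 2444 bp from the hairpin. *Mir31* (5, 7, 3 and 2) and *Mir698* (9, 15, 6 and 7) followed. *Mir207*, in an exon of the chaperone gene *Dnaja1*, was below the limit with heights of 18, 12, 22 and 23 and a ratio of 0.522 (0.237–1.09). Its line and that of *Dnaja1* have the same values.

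The 2 genotype pairs share no library. *Mir677* passed the upper limit in both, which is 1 of 9 loci (11.1%) and 1 of 14 (7.14%). Of all loci, 194 did so, 24.7% and 13.3% of those above the limit. Height was greater with PARP-14 in both pairs at 30 loci (46.9%, beside 31.2% of all loci) and smaller in both at 7 (10.9%, beside 15.2%). Over the 82 microRNA loci these were 35 (42.7%) and 9 (11%). The 7 were *Mir21*, the *Mir23b* cluster, *Mir207*, *Mirlet7g*, *Mir688*, *Mir202* and *Mir744*.

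PJ34 was read as the ratio of the untreated to the treated library of a genotype. In *Parp14*+/+ cells 9 loci were above the upper limit, higher without PJ34 (14.1%, beside 4.27%), and 4 below the lower, higher with it (6.25%, beside 6.86%). Over the 82 loci they were 11% and 4.88%. The 9 included the *Mir17* cluster (1.58, 0.926–2.76), *Mir7-1* (1.48, 0.936–2.38), *Mir150* (1.41, 0.79–2.55) and *Mir191*/*Mir425* (1.67, 0.944–3.01). *Mirlet7f2*/*Mir98* (1.64, 0.81–3.45) and *Mir207* (1.5, 0.684–3.41) were also among them, and *Mir331*, *Mir365-2* and *Mir103-1* were at heights under 10. The 4 below the limit, *Mir128a*, *Mir133a-2*, *Mir698* and *Mir202*, peaked at 8 to 15 with PJ34. The median ratio was 1, beside 0.952 over all loci of the table.

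In *Parp14*−/− cells 8 loci were above the upper limit (12.5%, beside 8.25%) and 2 below the lower (3.12%, beside 2.88%), or 9.76% and 2.44% over the 82 loci. *Mir7-1* (chr13:58494139-58494246, − strand), in an intron of *Hnrnpk* and with the values of that gene, had heights of 49, 33, 43 and 29, lower in both PJ34-treated libraries by the same ratio, 1.48 (0.905–2.46 in *Parp14*−/−). *Mir219-1* had a ratio of 1.75 (0.822–3.90), *Mirlet7f2*/*Mir98* 1.6 (0.683–3.94) and *Mirlet7d*/*Mirlet7f1*/*Mirlet7a-1* 1.5 (0.684–3.41), and *Mir219-2*, *Mir30e*, *Mir671* and *Mir199a-1* were the others. *Mirlet7i* (0.684, 0.311–1.46) and *Mir26b* (0.643, 0.245–1.60) were below the limit. The 2 PJ34 comparisons share no library, and *Mir7-1* and *Mirlet7f2*/*Mir98* were above the limit in both, which is 2 of 9 loci (22.2%) and 2 of 8 (25%). Of all loci, 47 were, 11.2% and 5.77% of those above the limit. Over the *Mirlet7f2*/*Mir98* hairpins the intervals were 10 and 9 high in the *Parp14*+/+ libraries and 10 in untreated *Parp14*−/−, with none in *Parp14*−/− + PJ34. The heights of 23, 14, 16 and 10 behind its ratios were thus read elsewhere in the region. With each library divided by its median, 5 loci were above the limit in *Parp14*−/− cells, and *Mir7-1* was not among them. No 95% interval in either PJ34 comparison was free of 1. The median ratio was 1.07, as over all loci of the table.

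Hosts carried many of these values. In the NCBIM37 annotation 33 loci lay in a protein-coding gene on the same strand, 2 in one on the other strand (*Mir328* in *Elmo3* and *Mir199a-1* in *Dnm2*), 8 in a noncoding gene and 21 in no gene, counting the first hairpin of a cluster. A line for the host was found at 34 loci, and at 11 its 4 values were those of the microRNA. At 31 of the 64 loci some other line within 100 kb, host or not, had the same 4 values. Where the host has more regions, the values differ: *Huwe1* had 12.4, 12.2, 11.6 and 9.2 over 5 regions, against 23, 14, 16 and 10 at *Mirlet7f2*/*Mir98*. *Xpo5*, which encodes the exporter of microRNA hairpins, hosts *Mir693* in an intron. The *Mir693* heights of 20, 15, 16 and 20 come from a region 4083 bp away that it shares with *Yipf3* and the polymerase I subunit line *Rpo1-1*.

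The genes of the microRNA pathway were on the whole at modest heights. Of the 30 listed genes, 27 had a line by coordinates and 23 an interval in at least 1 library, and *Drosha*, *Prkra* and *Lin28b* had no matched line. *Ddx5*, a helicase of the Drosha complex, was the highest, with 133, 147, 160 and 144. In the untreated genotype pair 2 of the 27 were above the upper limit (7.41%, beside 7.94% of all loci) and 0 below the lower one (beside 6.56%). *Tarbp2*, the RNA-binding partner of Dicer, had 26, 32, 18 and 18, with both *Parp14*+/+ libraries higher (1.44, 0.762–2.80, and with PJ34 1.78, 0.968–3.36). *Xpo5* had 9.5, 7.5, 6.75 and 7.75 (1.41, 0.837–2.40). With PJ34, *Tarbp2*, *Ddx6* (18, 16, 16 and 11) and *Ago4* (3, 9, 1 and 2) made 3 above (11.1%, beside 14.8% of all loci) and 0 below (beside 3.32%). *Ddx6*, a repressor of translation and partner of the silencing complex, was also above the limit in the *Parp14*−/− PJ34 comparison (1.45, 0.634–3.47), and *Ago4* was below the lower limit in the *Parp14*+/+ one. *Dicer1* (9, 7.67, 7.67 and 6.33), *Dgcr8* (8.67, 11, 10 and 8.33), *Ago2* (26, 27, 27 and 27) and *Zc3h12a* (23, 25, 24 and 26), a nuclease that also cuts microRNA precursors, passed no limit. The median pathway ratio was 1.12 untreated and 1.19 with PJ34, beside 1 and 1.14 over all loci.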

How the data were processed

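Chromatin of Th2 cells was precipitated with an antibody to polymerase II phosphorylated on serine 2 and sequenced, 1 library per condition. Reads had been aligned by the authors to mm9 (ELAND) and cleared of duplicates; they then set every library to an equal number of alignments and called intervals with SICER. The deposited gene table holds a signal per gene and library, the average peak height, which is a pile-up of fragments and not a read count, and the deposited tracks list per library the intervals and the maximum signal of each. A further 8 per-sample columns belong to libraries not analysed here.

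Columns were taken by sample name. Ratios were formed with no pseudocount, with 95% exact binomial (Clopper-Pearson) intervals on heights summed over regions. Depth is equal by construction, so precision is set by the height itself. Hosts and pathway genes were placed with the GENCODE annotation of NCBIM37, the assembly of mm9, and matched to lines by coordinates, with at least 0.5 of the joint length shared or, failing that, by overlap and the same name. Scripts used Python 3.11.15, pandas 2.3.3 and scipy 1.17.1, and the ratio intervals were tested on simulated data. The members and lists were chosen with earlier results of these data known. Loci are named where any height reached 20, where they belong to the T cell list, or for the 5 highest and 5 lowest untreated ratios past a limit; pathway genes are named where past a limit, and further loci and genes were named after their values were seen. Alternatives covered the need for an interval, the limits, the scaling, the counting of lines, a height minimum and the interval over the locus; the 2 on all microRNA lines and on the hairpin's own interval were chosen after seeing the data.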

Additional observations from a re-analysis of the deposited data

How the results depend on the processing

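No paired analysis was possible because each condition is 1 library and no labels pair them, and for the same reason no library could be left out. Of 64 alternative counts, 30 stayed within 1.5 times the count reported and 34 did not. For the untreated genotype pair, 9 loci above the limit became 14 with no interval asked for, 1 with limits of 2 and 0.5, 5 with a summed height of at least 20 and 2 by the interval over the locus, and 1 below it became 4, 0 (limits of 2 and 0.5) and 2 (all microRNA lines). For the PJ34-treated pair, 14 above became 3 (limits of 2 and 0.5), 7 (median scaling), 2 (summed height), 2 (interval over the locus) and 3 (hairpin under an interval), and 1 below became 2 (no interval asked for), 0 (limits of 2 and 0.5), 4 (median scaling) and 2 (all microRNA lines). For PJ34 in *Parp14*+/+ cells, 9 above became 2 (limits of 2 and 0.5), 16 (every line counted) and 5 (summed height), and 4 below became 7 (no interval asked for), 2 (limits of 2 and 0.5), 0 (summed height), 1 (interval over the locus) and 1 (hairpin under an interval). For PJ34 in *Parp14*−/− cells, 8 above became 0 (limits of 2 and 0.5), 5 (median scaling), 2 (summed height), 2 (interval over the locus) and 5 (hairpin under an interval), and 2 below became 4 (no interval asked for), 0 (limits of 2 and 0.5), 0 (summed height), 1 (interval over the locus) and 1 (hairpin under an interval). Median scaling divided *Parp14*+/+ + PJ34 by 1.05 and *Parp14*−/− + PJ34 by 0.909. The cause of the other changes was not tested. At 44 of the 64 loci the summed height was under 20 in every library, where counting intervals are wide.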

Other observations

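Of the 21 microRNA lines that stand under another gene's name, 3 had an interval, in a *Parp14*−/− library each time. *Mir423*, in its line under the name *Armetl1*, had peak heights of 9, 9, 13 and 18 in the order used above, with an interval over the hairpin in both *Parp14*−/− libraries. *Mir146*, known as a brake on NF-κB signalling, had 8.5, 10, 8 and 10.5, with an interval over the hairpin in *Parp14*−/− + PJ34. *Mir760* had 14, 14, 13 and 17, with an interval in *Parp14*−/− that did not cover the hairpin. Since lines with an interval in a *Parp14*+/+ library kept their names, that these lines had none there is fixed by how they were found.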
